A study of Mus musculus with 6 samples.

Results

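The genes described are 10 transcription factors that mark or build the projection neurons of the striatum: Isl1, Ebf1, Zfp521, Zfp503, Six3, Ikzf1, Bcl11b, Bcl11a, Meis2 and Foxo1. They were chosen by name, with no measured values in the rule, but with earlier results of these data known. All 10 of 10 were found by their Ensembl identifiers among the 47062 genes of the deposited table. The mutant group was Drd2-Cre;Sp9Flox/Flox, with 3 libraries, and the control group was Sp9Flox/Flox littermates without Cre, also with 3 libraries. Both groups were at postnatal day 0 on a mixed background of C57BL/6J, 129S6 and CD1, and both carried the floxed Sp9 alleles. The striatum was dissected with the subventricular zone, and total RNA was sequenced. Drd2-Cre is a Cre recombinase driven by sequence of the D2 dopamine receptor gene (Drd2), so Sp9 was to be deleted in striatopallidal neurons and their precursors, and cells of the dissection that never express Cre retain an intact floxed gene. A group with Cre and unfloxed Sp9 was not among the samples. Whether each library was made from 1 animal is not stated in the labels, and the p-values below rest on the spread between libraries, which may in part be technical.

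Projection neurons make up most of the striatum and come in 2 classes. Direct pathway (striatonigral) neurons express the D1 dopamine receptor, and indirect pathway (striatopallidal) neurons express the D2 receptor. In mice, both classes arise from the lateral ganglionic eminence, and transcription factors that are shared by both, or held by one class, set which receptors, peptides and axon targets a neuron acquires. Isl1 and Ebf1 act in the direct class, Six3 acts in the indirect class downstream of Sp8 and Sp9, and Bcl11b (Ctip2) is needed in both.

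Depth ranged from 16236995 to 19457753 fragments per library. Features that set libraries apart included sex and cortical signal. Control replicate 3 had an Xist FPKM of 0.0604 and a summed FPKM of 102 over 4 Y-linked genes, against 186 to 235 and 0.0739 to 0.32 in the other 5 libraries, so it was the only male library. Genes of cortical glutamatergic neurons, summed over a list of 10, reached an FPKM of 37.3, 9.46 and 61.9 in mutant replicates 1 to 3, against 23.3, 25.2 and 8.95 in control replicates 1 to 3. Striatal identity was plain in every library: 13 genes shared by both projection neuron classes, such as Ppp1r1b, summed to an FPKM of 1278 to 1436 in mutants, against 1431 to 1542 in controls. Sp9 itself had an FPKM of 8.37, 7.93 and 9.67 in mutants, against 20.1, 19 and 17.3 in controls (limma adjusted p = 0.0567 on FPKM, 0.00635 on scaled counts). FPKM sets the fragments of a gene against its transcript length and the size of the library, and scaled counts are the deposited fragment estimates multiplied by 1 factor per library.

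Promoter sequences are shown for the 4 factors whose mutant and control libraries did not overlap on at least 1 of the deposited scales, since these carry the largest differences below. Each runs from 250 bases before to 50 bases after the RefSeq start of the gene, on the strand of the gene, in GRCm38.p6. Capitals mark the letters GGGCGG or their reverse complement CCGCCC, the GC box to which zinc fingers of the Sp family are known to bind, and matches may overlap. The windows are chr13:116309639-116309938 on the minus strand (Isl1), chr14:21989552-21989851 on the minus strand (Zfp503), chr3:52268087-52268386 on the plus strand (Foxo1) and chr11:11685675-11685974 on the plus strand (the first of the starts listed for Ikzf1).
Isl1: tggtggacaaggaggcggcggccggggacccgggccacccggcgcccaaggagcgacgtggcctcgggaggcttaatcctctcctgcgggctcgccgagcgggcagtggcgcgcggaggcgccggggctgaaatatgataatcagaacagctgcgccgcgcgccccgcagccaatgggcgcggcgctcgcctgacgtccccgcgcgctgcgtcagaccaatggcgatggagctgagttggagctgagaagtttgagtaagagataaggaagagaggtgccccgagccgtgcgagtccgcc
Zfp503: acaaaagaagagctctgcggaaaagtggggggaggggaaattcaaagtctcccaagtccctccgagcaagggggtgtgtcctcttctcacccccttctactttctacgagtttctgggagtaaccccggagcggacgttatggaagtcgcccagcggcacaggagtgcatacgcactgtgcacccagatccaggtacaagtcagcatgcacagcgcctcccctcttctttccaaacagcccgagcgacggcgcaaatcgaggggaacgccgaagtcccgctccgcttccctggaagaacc
Foxo1: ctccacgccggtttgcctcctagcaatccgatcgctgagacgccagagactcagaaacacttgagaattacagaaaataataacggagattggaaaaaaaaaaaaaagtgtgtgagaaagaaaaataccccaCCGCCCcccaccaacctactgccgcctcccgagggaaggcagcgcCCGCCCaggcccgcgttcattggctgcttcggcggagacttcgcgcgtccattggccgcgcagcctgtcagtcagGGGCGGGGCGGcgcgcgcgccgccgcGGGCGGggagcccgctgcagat
Ikzf1: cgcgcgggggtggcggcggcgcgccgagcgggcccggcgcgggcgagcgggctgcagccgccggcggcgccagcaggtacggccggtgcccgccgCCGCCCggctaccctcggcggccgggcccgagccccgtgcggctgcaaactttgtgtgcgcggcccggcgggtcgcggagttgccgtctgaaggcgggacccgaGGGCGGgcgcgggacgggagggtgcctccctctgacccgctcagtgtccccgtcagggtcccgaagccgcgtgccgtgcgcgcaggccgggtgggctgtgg

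The Foxo1 window held 5 matches and the Ikzf1 window 2, while the Isl1 and Zfp503 windows held 0. The window of the other Ikzf1 start held 0. Among factors not shown, the Bcl11a window held 2, and those of Bcl11b, Ebf1, Meis2 and Six3 held 0. No window of Zfp521 was read, so 9 factors were covered. G and C made up 61.3% of the Foxo1 window, 81.3% of Ikzf1, 69.0% of Isl1 and 58.3% of Zfp503. Over 32851 RefSeq promoter windows of the same length, 35.7% held at least 1 match and 10.7% held 3 or more. Their median share of G and C was 52.7%, and they were not matched to the factors for it. A match describes letters in the window and not a binding site.

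None of the 10 factors differed between mutants and controls past an adjusted p of 0.05 (limma on log2(FPKM + 0.5), 16666 genes tested), where 0.0600% of all genes tested did. All 10 passed the filter on low values. Over all genes, 0.0360% passed as higher and 0.0240% as lower in mutants. An unadjusted p under 0.05 was reached by 3 factors, beside 5.65% of all genes: Zfp503 was higher in mutants (2.65% of all genes), and Isl1 and Foxo1 were lower (2.99% of all genes). These were also the factors whose groups did not overlap, beside 11.4% of all genes tested, of which 5.33% were higher and 6.05% lower. Estimates were above 0 for 5 factors and below 0 for the other 5, and the median log2 fold change was 0.00, as it was over all genes tested. On scaled counts (16125 genes tested) 0 of 10 passed in limma, beside 0.143% of all genes (0.0496% higher and 0.0930% lower). There 4 factors had an unadjusted p under 0.05, beside 6.42% of all genes: Zfp503 was higher (3.24% of all genes), and Isl1, Foxo1 and Ikzf1 were lower (3.19% of all genes). The groups of these 4 did not overlap, 1 being higher (5.46% of all genes were higher without overlap) and 3 lower (6.49% of all genes). Regardless of sign, the median log2 fold change on FPKM was 0.1 for the factors, beside 0.08 over all genes tested. On scaled counts it was 0.14, beside 0.08.

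The intervals bound the change in the whole dissection, not in the targeted cells alone. The limma intervals at 95% for the log2 fold change of all 10 factors lay between -0.75 (the lower bound for Foxo1) and 0.45 (the upper bound for Six3) on FPKM, and between -0.69 and 0.37 on scaled counts. A 2-fold change is 1 on this scale, and it lay outside the interval of all 10 factors in each fit. In bulk tissue, fewer cells of a class and less RNA per cell cannot be told apart. Cells that never express Cre add to these values, so a change within the targeted cells could be larger than these bounds.

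**Figure D1:**
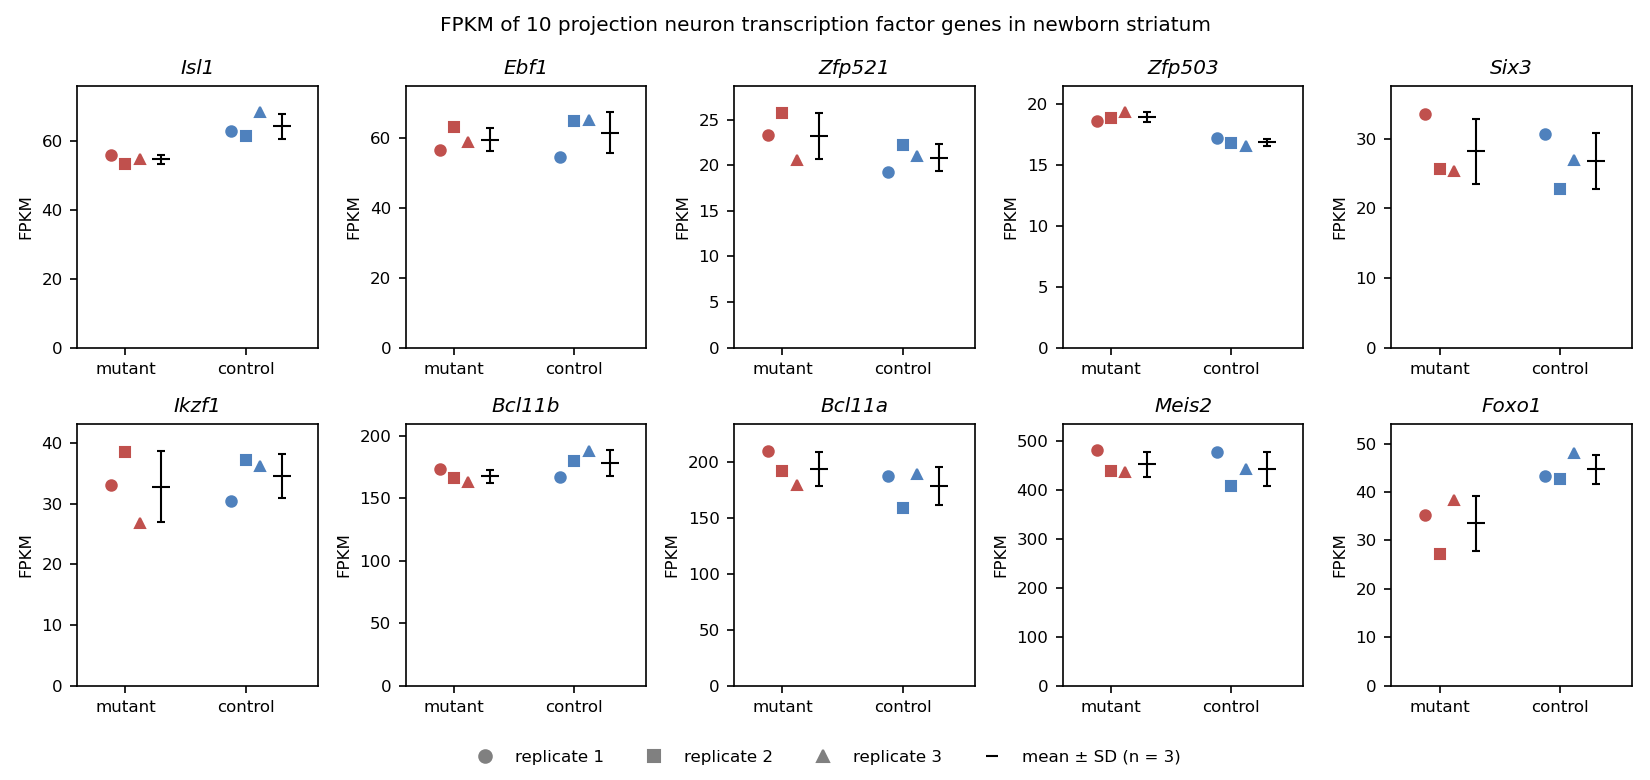
FPKM (vertical axes, each starting at 0) of the 10 transcription factor genes in the mutant libraries (red, left) and the control libraries (blue, right), with 1 point per library and the mean ± SD in black (n = 3 each). Isl1 and Foxo1 have every mutant library below every control library, Zfp503 has every mutant library above, and the other 7 overlap.

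The factors differed far more from each other than between the groups. By mean FPKM in controls, which is a level per length, the order was Meis2, Bcl11a, Bcl11b, Isl1, Ebf1, Foxo1, Ikzf1, Six3, Zfp521 and Zfp503, and the first was 26.2 times the last. Within the controls, the ranges overlapped between Bcl11a and Bcl11b, between Isl1 and Ebf1, and between Ikzf1 and Six3, so the order inside these pairs is not set beyond the spread. In the mutants every Ebf1 value (56.6 to 63) stood above every Isl1 value (53.3 to 55.9), and the ranges of Foxo1, Ikzf1, Six3 and Zfp521 overlapped from one to the next. Even the lowest of the 10 in controls, Zfp503, had a control mean above those of 64.3% of all genes tested, and the factor with the fewest fragments, Six3, held 928 to 1439 fragments per library.

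Among factors of the direct class, Isl1 had the lowest unadjusted p. Isl1 (ENSMUSG00000042258; GRCm38 chromosome 13, 116298281 to 116309689, minus strand) encodes a LIM homeodomain protein that directs striatonigral differentiation in mice and is also held by cholinergic interneurons. Its FPKM was 55.9, 53.3 and 54.9 in mutants, against 63.1, 61.6 and 68.4 in controls. Every mutant library lay below every control library, and the mutants varied little among themselves. The means were 54.7 ± 1.34 in mutants and 64.3 ± 3.57 in controls (SD, n = 3 each), a ratio of 0.85 (log2 fold change -0.23 ± 0.05 SE, limma adjusted p = 0.654; exact two-sided permutation p = 0.1, the smallest that 3 against 3 libraries allow). Scaled counts gave 1893, 1855 and 1894 in mutants, against 2114, 2061 and 2342 in controls. Without control replicate 3, the male library, the log2 fold change of Isl1 was -0.19 on FPKM (limma unadjusted p = 0.00717). Markers of cholinergic interneurons were higher in the mutants in sum, by a narrow margin between the nearest libraries. The sum over 8 markers was an FPKM of 25.7, 33.6 and 23.2 in mutants, against 15.7, 22.2 and 22.9 in controls. Of the 7 tested, 6 had estimates above 0. The groups did not overlap for 2 of them, beside 11.4% of all genes, and 1 had an unadjusted p under 0.05 in limma, beside 5.65%. Chat, the defining gene of these interneurons, was near the floor, at 0.88 ± 0.413 in mutants and 0.597 ± 0.287 in controls. The part of cholinergic cells in the Isl1 values was not tested.

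Zfp503 went the other way. Zfp503 (Nolz1; ENSMUSG00000039081; chromosome 14, 21983959 to 21989601, minus strand) encodes a zinc finger protein that favours the direct over the indirect class in mice. Its FPKM was 18.6, 18.9 and 19.4 in mutants, against 17.2, 16.8 and 16.6 in controls. The groups did not overlap and each was tight, with means of 19 ± 0.375 in mutants and 16.9 ± 0.317 in controls (SD, n = 3 each). The difference was only 1.13-fold (log2 fold change 0.17, interval 0.06 to 0.27, limma adjusted p = 0.722; exact permutation p = 0.1). Over all genes tested, 27.1% had a difference at least as large in size on the log2 scale.

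Ebf1 and Zfp521, which act in direct class neurons in mice, overlapped between the groups. Ebf1 (ENSMUSG00000057098; chromosome 11, 44617317 to 45008091), a helix-loop-helix factor, had an FPKM of 56.6, 63.0 and 58.7 in mutants, against 54.6, 64.7 and 65.0 in controls. The lowest library of all 6 was a control, and the interval of the log2 fold change ran from -0.25 to 0.16. Ebf1 is also expressed by mural cells of vessels, whose 9 markers summed to an FPKM of 34.8 to 40.4 in mutants, against 41 to 42.1 in controls. Singly, the groups of each of the 9 overlapped, 3 had estimates above 0, and the median log2 fold change was -0.01. The part of mural cells in the Ebf1 values was not tested. Zfp521 (ENSMUSG00000024420; chromosome 18, 13687013 to 13972787) had 23.3, 25.7 and 20.6 in mutants, against 19.3, 22.2 and 21.0 in controls. Its log2 fold change was 0.15 (interval -0.09 to 0.39), and leaving out mutant replicate 2 took it to 0.07, while leaving out mutant replicate 3 took it to 0.23 (limma unadjusted p = 0.046).

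The genes that these factors accompany in direct pathway neurons gave higher estimates in the mutants. Of 8 direct effector genes, 7 had estimates above 0, with a median log2 fold change of 0.32 beside 0.00 over all genes. An unadjusted p under 0.05 in limma was reached by 4, all higher, beside 2.65% of all genes. None passed an adjusted p of 0.05. The list was chosen with earlier results of these data known. Drd1, the D1 receptor gene, had an FPKM of 37.7, 42.7 and 37.6 in mutants, against 27.0, 18.8 and 25.3 in controls. Sfxn1, Tmem158 and Pdyn had ratios of 1.36, 1.30 and 1.43, and Tac1 had 0.994. Isl1 and Drd1 thus had non-overlapping groups in opposite directions; the difference between the genes was not tested.

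Six3 and Ikzf1 are the factors tied to the indirect class. Six3 (ENSMUSG00000038805; chromosome 17, 85613608 to 85629302, plus strand) encodes a homeodomain protein that promotes D2-class neurons in mice. Its FPKM was 33.6, 25.6 and 25.4 in mutants, against 30.7, 22.7 and 27.0 in controls. Replicate 1 was the highest library in each group, and the groups overlapped. The log2 fold change was 0.07 with an interval of -0.31 to 0.45, and its sign turned (-0.06) without mutant replicate 1 and (-0.04) without control replicate 2. The antisense transcript Six3os1 overlaps Six3 and had an FPKM of 9.95, 9.39 and 8.73 in mutants, against 12.1, 7.37 and 9.03 in controls. The use of strand is not given in the sources used here, so fragments of the pair could not be told apart.

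Ikzf1 was the one factor for which the deposited scales disagreed. Ikzf1 (Ikaros; ENSMUSG00000018654; chromosome 11, 11685003 to 11772926, plus strand) encodes a zinc finger protein that promotes enkephalin neurons in the mouse striatum and is also a factor of blood cells. Its FPKM was 33.1, 38.5 and 26.9 in mutants, against 30.5, 37.2 and 36.2 in controls, and the groups overlapped (log2 fold change -0.08, interval -0.45 to 0.28). Its scaled counts were 1650.2, 1831 and 1944 in mutants, against 2086, 2621 and 2699.8 in controls. On that scale every mutant library lay below every control library, with means of 1809 ± 148 in mutants and 2469 ± 334 in controls (SD, n = 3 each), a ratio of 0.733 (log2 fold change -0.44, interval -0.68 to -0.21, limma adjusted p = 0.263, unadjusted p = 0.00223). The call stayed outside the threshold, and the log2 fold change on scaled counts ran from -0.56 to -0.37 with 1 library left out, which was run after the data had been seen.

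The scaled count per FPKM of a gene, with each library set to the same median over genes, shows in which libraries the scales differ. For Ikzf1 it was 49.9, 47.5 and 72.1 in mutants, against 68.8, 70.2 and 74.7 in controls. Mutant replicates 1 and 2 stood apart, while mutant replicate 3 lay among the controls. The range over the 6 libraries was 0.65 on the log2 scale, larger than that of 95.5% of 15101 genes, whose median range was 0.07. For the other 9 factors the range was 0.01 to 0.13. GENCODE release M21 lists 6 coding transcripts of Ikzf1, from 242 to 5163 bases long. Which isoforms the deposited estimates used is not given in the sources used here, and whether isoform use differed was not tested. Of microglia, which share the blood lineage, 12 marker genes summed to an FPKM of 34.0, 36.1 and 34.1 in mutants, against 29.6, 30.8 and 34.9 in controls. Cx3cr1 among them had 2.87 ± 0.256 in mutants and 2.42 ± 0.125 in controls; the part of microglia in the Ikzf1 values was not tested.

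**Figure D2:**
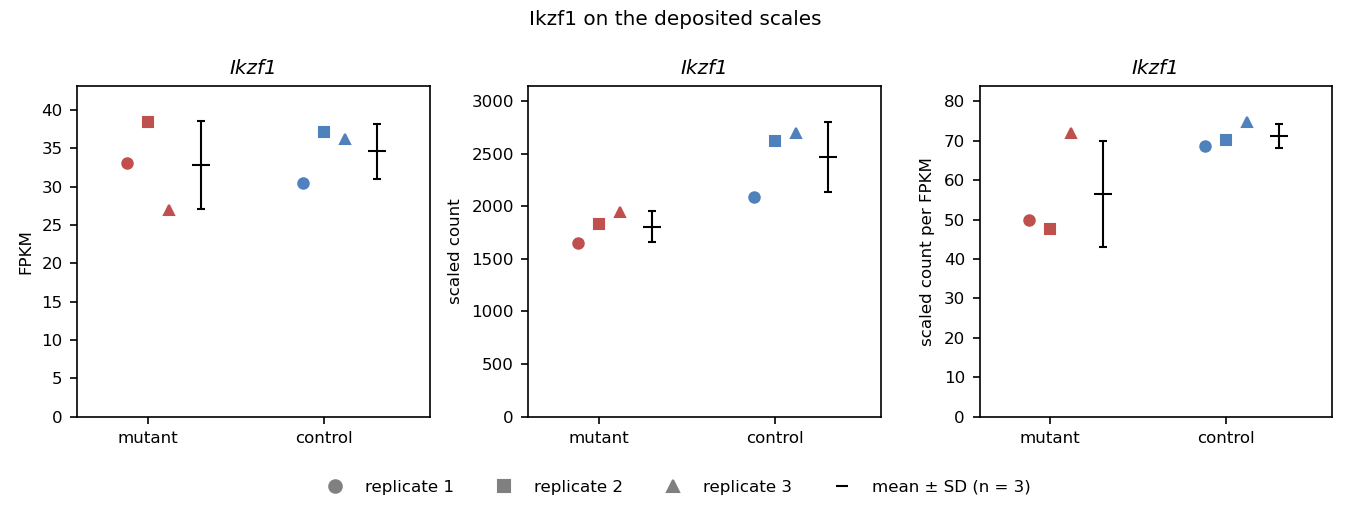
Ikzf1 in the mutant libraries (red, left) and control libraries (blue, right) as FPKM (left panel), as scaled count (middle panel) and as scaled count per FPKM with each library set to the same median over genes (right panel), with the mean ± SD in black (n = 3 each). The groups overlap in FPKM and do not overlap in scaled counts, and mutant replicates 1 and 2, at 49.9 and 47.5 scaled counts per FPKM, stand below the other 4 libraries.

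Of 11 effector genes of the indirect class measured, 2 fell past an adjusted p of 0.05 (Adora2a and Grik3, limma), beside 0.0240% of all genes. An unadjusted p under 0.05 in limma was reached by 7, all lower, beside 2.99% of all genes. The median log2 fold change was -1.02. The list was chosen with earlier results of these data known, so its counts and median describe it and test nothing. Adora2a, the adenosine receptor gene of these neurons, had an FPKM of 3.95, 5.36 and 3.02 in mutants, against 47.6, 41.1 and 44.1 in controls. Gpr6, Ptprm, P2ry1 and the enkephalin precursor gene Penk had ratios of 0.395, 0.480, 0.227 and 0.333 without passing on FPKM. On scaled counts 5 passed (Gpr6, Ptprm and P2ry1 besides), all lower, beside 0.0930% of all genes. Drd2 itself, the D2 receptor gene, overlapped between the groups, with an FPKM of 45.1, 45.9 and 42.1 in mutants, against 48.5, 42 and 44.5 in controls (log2 fold change -0.02, interval -0.18 to 0.14). The groups of Adk, Plxdc1 and Cd4 overlapped too, with ratios of 0.878, 0.878 and 1.21. For Six3 the ratio was 1.05, and its lowest library, a control, was at 22.7 FPKM; the difference from the effectors was not tested.

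Of the factors shared by both classes, Foxo1 had the largest difference of all 10 on FPKM. Foxo1 (ENSMUSG00000044167; chromosome 3, 52268336 to 52353221, plus strand) encodes a forkhead factor that is restrained by insulin and growth factor signalling and is expressed in the striatum. Its FPKM was 35.2, 27.2 and 38.3 in mutants, against 43.3, 42.7 and 48.1 in controls. Every mutant library lay below every control library, with mutant replicate 2 the lowest. The means were 33.6 ± 5.75 in mutants and 44.7 ± 2.96 in controls (SD, n = 3 each), a ratio of 0.75 (log2 fold change -0.42 ± 0.13 SE, limma adjusted p = 0.806, unadjusted p = 0.0215; exact permutation p = 0.1). Scaled counts gave the same ratio, with an adjusted p of 0.409. Without mutant replicate 2 the log2 fold change was -0.28, without control replicate 3 it was -0.37 (limma unadjusted p = 0.0738), and without control replicate 1 it was -0.44 (limma unadjusted p = 0.05). An antisense transcript, Gm20402 (chromosome 3, 52268435 to 52269435), lies inside Foxo1 and had an FPKM of 23.9, 16.3 and 25.4 in mutants, against 26.7, 26.4 and 30.1 in controls. It followed Foxo1 across the libraries, with its lowest value in mutant replicate 2 as well, and without strand the pair could not be told apart. Foxo1 is also active in endothelial cells, whose 10 markers summed to an FPKM of 64.7 to 75.2 in mutants, against 60.5 to 75 in controls, and overlapped.

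Bcl11b and Bcl11a are paralogous zinc finger genes, and neither separated the groups. Bcl11b (ENSMUSG00000048251; chromosome 12, 107910403 to 108003602), which is needed for differentiation of both classes in mice, had an FPKM of 173, 166 and 163 in mutants, against 167, 179.9 and 188 in controls. Its log2 fold change was -0.09 (interval -0.23 to 0.05), with an unadjusted p of 0.163 in limma that became 0.0312 without control replicate 1. Bcl11a (ENSMUSG00000000861; chromosome 11, 24078056 to 24174123) had 210.5, 192 and 180.2 in mutants, against 188, 159 and 189.8 in controls, a log2 fold change of 0.12 (interval -0.11 to 0.35). The estimates differed in sign, and each interval held 0. Both genes are also strong in cortical neurons, and the library with the most cortical signal, mutant replicate 3, had the lowest FPKM of both genes among the mutants; the part of cortical cells in these values was not tested. Meis2 (ENSMUSG00000027210; chromosome 2, 115863064 to 116065839), a homeodomain factor of the lateral ganglionic eminence and its neurons, had 482, 439 and 436 in mutants, against 477, 407 and 443 in controls. It was the most abundant of the 10 in every library, with a log2 fold change of 0.03 (interval -0.15 to 0.22) on FPKM and 0.12 (interval -0.02 to 0.25) on scaled counts. Its sign on FPKM turned without mutant replicate 1 (-0.01) or control replicate 2 (-0.02).

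**Figure D3:**
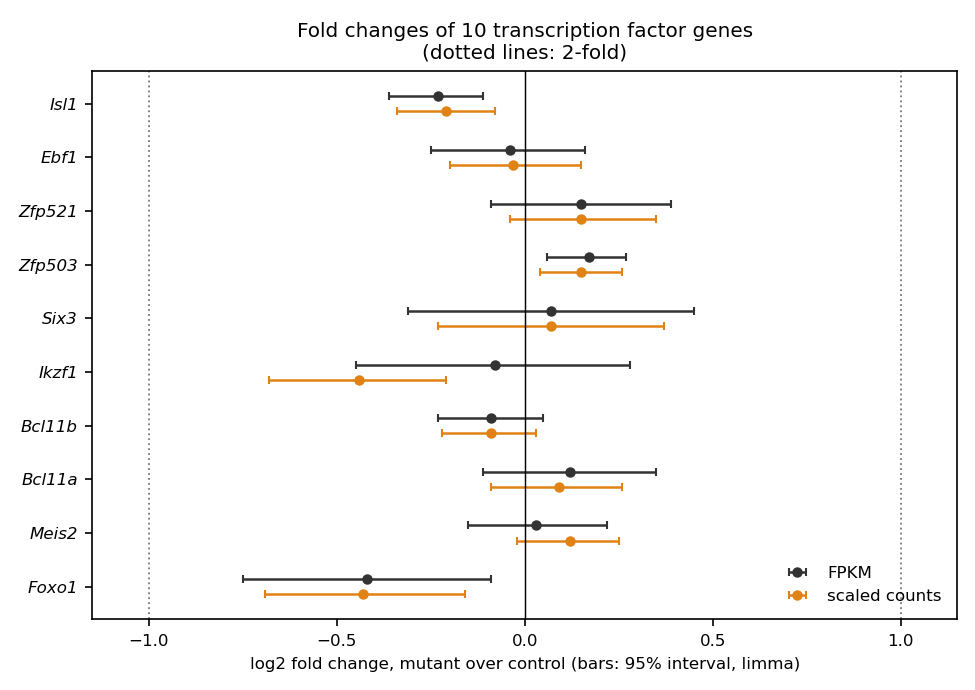
Log2 fold change of mutant over control (horizontal axis) for the 10 transcription factor genes with the 95% interval from limma, on log2(FPKM + 0.5) in black and on log2(scaled count + 1) in orange; dotted lines mark a 2-fold change. All intervals lie inside the dotted lines, and Ikzf1 is the gene whose estimates differ most between the scales, at -0.08 on FPKM and -0.44 on scaled counts.

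Relatives of the factors were read from a list of 23 genes of the same or partner families, of which 16 passed the filter on low values. None passed an adjusted p of 0.05 (limma). By unadjusted p, 3 were under 0.05: 1 was higher (2.65% of all genes), and 2, Foxo3 and Ikzf2, were lower (2.99% of all genes). The median log2 fold change was 0.01. Foxo3, a forkhead relative of Foxo1, had 13.9, 12.7 and 14 in mutants, against 15.6, 16.1 and 16.0 in controls (log2 fold change -0.23, adjusted p = 0.695). Foxo6 had 28.9 ± 5.40 in mutants and 35.9 ± 2.91 in controls, with groups that overlapped. Ikzf2 (Helios), an Ikaros relative that also acts in D2-class neurons in mice, had 3.02, 3.62 and 2.96 in mutants, against 3.67, 4.56 and 4.41 in controls (log2 fold change -0.35, unadjusted p = 0.0298); on scaled counts its groups overlapped.

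The most abundant relative was far below its factor in level per length for Ebf1, Zfp521, Zfp503, Isl1 and Six3. For Ebf1 it was Ebf4, which had an FPKM of 2.56 ± 0.214 in mutants and 2.16 ± 0.366 in controls. Zfp423, the relative of Zfp521, had 3.28 ± 1.75 in mutants and 3.62 ± 0.732 in controls, and Zfp703, the relative of Zfp503, had 3.81 ± 0.745 in mutants and 3.94 ± 0.451 in controls. Isl2 was listed at 0 in all 6 libraries, and Six2 was at 0.848 ± 0.299 in mutants and 0.63 ± 0.175 in controls. Ikzf4 had 12.8 ± 1.38 in mutants and 12.6 ± 1.77 in controls, and Meis3 had 55.4 ± 3.66 in mutants and 57.4 ± 4.11 in controls.

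Other regulators of the lineage and shared effector genes give the setting. Of 24 other striatal regulators, 23 were tested and none passed an adjusted p of 0.05 on FPKM (limma), though Sp9 did on scaled counts. By unadjusted p, 1 was higher and 4 lower past 0.05, beside 2.65% and 2.99% of all genes. The median log2 fold change was 0.06. Foxp1, a forkhead factor of both classes, had an FPKM of 263, 248 and 265 in mutants, against 322, 328 and 344 in controls. Dlx5, a homeodomain factor of the ganglionic eminences, had 35.3 ± 1.83 in mutants and 24.5 ± 4.05 in controls, and Foxp2 had 46.9 ± 1.49 in mutants and 51.2 ± 0.815 in controls. Of 13 shared effectors none passed on FPKM, while 1 passed on scaled counts, as lower. By unadjusted p on FPKM only 2 were under 0.05, each lower, beside 2.99% of all genes. Gnal, a G protein subunit gene and 1 of these, had an FPKM of 172 ± 10.1 in mutants and 192 ± 4.70 in controls. Arpp19 and Pde1b had ratios of 0.957 and 0.901. The median log2 fold change of the shared effectors was -0.06.

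**Figure D4:**
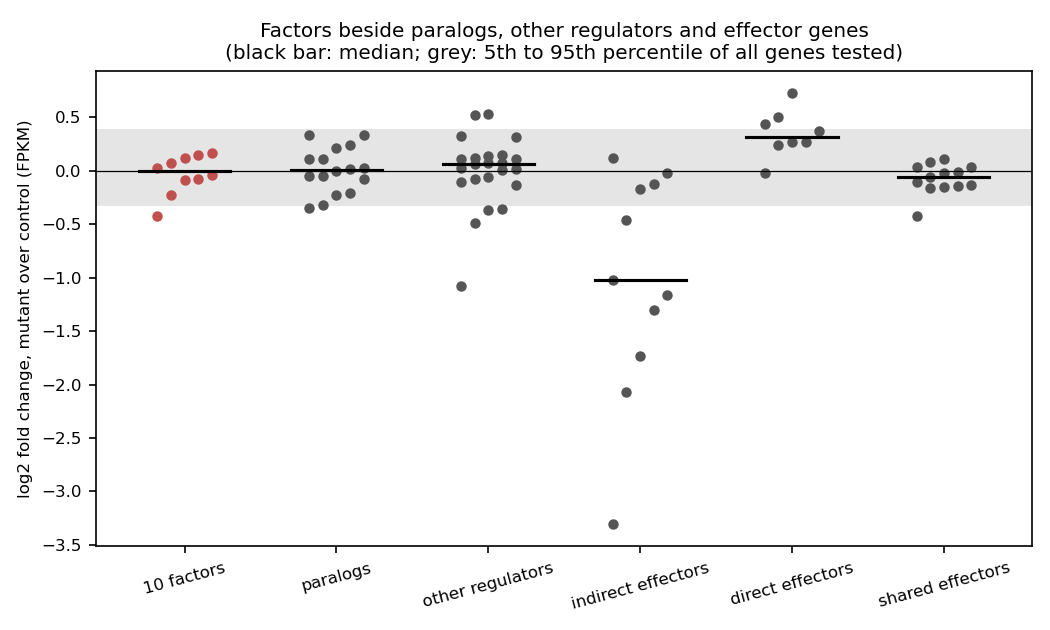
Log2 fold change of mutant over control on FPKM (vertical axis) for each tested gene of 6 lists, with the 10 factors in red, other lists in grey, the median as a black bar and the 5th to 95th percentile of all 16666 genes tested (-0.33 to 0.39) as a grey band. The indirect effectors have a median of -1.02 and reach far below the band. Of the 10 factors, 9 lie inside it and Foxo1, at -0.42, lies just below. The lists were chosen with earlier results of these data known, so the contrast between them is descriptive.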

How the data were processed

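Total RNA of newborn striatum was measured in 6 libraries. The authors deposited 1 table with an FPKM column and a count column per library, per the file headers. The submitters' processing notes name TopHat (version not given), Cufflinks 2.1.1 and the genome build GRCm38.p4. Annotation, strand and the handling of reads with several positions: not given in the sources used here. The count columns, as deposited by the authors, hold a signal that is not whole: of the values up to 100 steps, leaving out those of at most 0.01, 98.4 to 98.6% per library lay within 0.1 of a whole multiple of 1 step. They are called scaled counts here, and no count test was run. Fragments are the total divided by the step. Columns were matched to samples by the codes in the labels, and symbols came from GENCODE M21 (46483 of 47062 identifiers). No 2 libraries held identical columns, and pairwise correlations of log2(FPKM + 0.5) were 0.824 to 0.859.

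The fit was made with limma 3.58.1 (R 4.3.3), with a variance trend and no covariate, mutant minus control, on log2(FPKM + 0.5) of every gene whose mean FPKM reached 0.5. P-values are two-sided and Benjamini-Hochberg adjusted over all genes tested, with a threshold of 0.05. Fold changes on this scale understate those of low genes. Scaled counts were fitted as log2(scaled count + 1) where their mean reached 10. The code was tested on simulated data with known changes.

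The members, the lists and the rule for named genes were chosen with earlier results of these data known. The rule takes all 10 factors, Sp9, and from each list the genes that passed, then at most 4 more in order of p, plus the most abundant relative of each factor and the defining markers of other cells. Tac1, Ppp1r1b, Drd2, Adk, Plxdc1, Cd4, Sox9, Six3os1 and Gm20402 were named outside it, after their values were seen. The same holds for Fabp7, Mki67, Top2a, Ccnd2, Nes, Hes5, Hes1 and Cspg5. Of the lists, Gpr52 was not analysed here, and some genes that the rule names are not reported here. Lists of further cell types are given in the closing section.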

Additional observations from a re-analysis of the deposited data

How the results depend on the processing

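No factor passed an adjusted p of 0.05 in limma under any of 15 other settings. These were pseudocounts of 0.1 or 1, a minimum mean FPKM of 1 or none, normalization by quantiles or by median ratios, a block for the replicate number, robust variances, scaled counts, and the removal of each of the 6 libraries. Added after the data had been seen, scaled counts with the replicate block or with each library left out gave none either; the lowest adjusted p was 0.0533, for Ikzf1 on scaled counts with the block. Factors at an unadjusted p under 0.05 numbered 3, and 2 to 4 with 1 library left out (2 without control replicate 3, where Foxo1 was no longer under 0.05). Without control replicate 1 the factors under 0.05 were Isl1, Zfp503 and Bcl11b (limma unadjusted p = 0.0312), and Foxo1 was again not among them. On scaled counts they numbered 4, 5 with the block, and 3 to 6 with 1 library left out. Genes past an adjusted p of 0.05 numbered 10, and 47 with no filter, 5 with the replicate block, 23 on scaled counts, and 12 to 21 when 1 library was removed. Over the 15 settings the log2 fold change of Isl1 ranged from -0.26 to -0.19, Zfp503 from 0.15 to 0.18, Foxo1 from -0.52 to -0.28 and Ikzf1 from -0.44 to 0.05, and Isl1, Zfp503 and Foxo1 kept their direction. With 1 library removed, the ranges on FPKM were -0.06 to 0.17 for Six3, -0.2 to 0.05 for Ikzf1 and -0.02 to 0.09 for Meis2. The sign turned for Meis2 with quantile normalization (-0.01), without mutant replicate 1 (-0.01) and without control replicate 2 (-0.02), for Six3 without mutant replicate 1 (-0.06) and without control replicate 2 (-0.04), both on FPKM and on scaled counts, for Ikzf1 without mutant replicate 3 (0.05), and for Ebf1 on scaled counts without control replicate 2 (0.00) or 3 (0.03). The cause was not tested. Same-numbered libraries deviated together with correlations of only 0.002, 0.037 and 0.043. Mutant replicates 2 and 3 were closest to the control of the same number, and mutant replicate 1 to control replicate 3 (0.023). The labels do not state that the numbers pair animals, so the block was kept as an alternative setting only. With 3 libraries a group, small differences near the spread between libraries could not be detected.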

Other observations

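Markers of other cells in the dissection were summed per library, and no member of these lists passed an adjusted p of 0.05 on FPKM with limma, while Sox9 did on scaled counts. Interneurons of the medial ganglionic eminence (9 genes) had a summed FPKM of 410 to 492 in mutants, against 322 to 433 in controls. Progenitors (9 genes) had 601 to 720.2 in mutants, against 558 to 669 in controls, and most of this sum was Fabp7 (437 to 609). The sum does not show that dividing-cell genes were highest in mutant replicate 3. There Mki67 was 3.64, Top2a 10.9 and Ccnd2 46.1, against 1.58 to 2.58, 4.16 to 8.46 and 20 to 28.1 elsewhere. Nes, Hes5 and Hes1 were not highest in that library. Astrocytes (7 genes) had 84.8 to 98.5 in mutants, against 87.7 to 114 in controls. Among the astrocyte genes Sox9, named after its values were seen, had an FPKM of 6.23, 5.9 and 8.42 in mutants, against 14.3, 16.7 and 14.2 in controls (ratio 0.455, limma adjusted p = 0.238 on FPKM and 0.0195 on scaled counts). Oligodendrocyte lineage genes (6) had 209.6 to 223 in mutants, against 209 to 222 in controls, and most of this was Cspg5 (141 to 151). Septal genes (6) had 14 to 19 in mutants, against 11.7 to 14 in controls, meningeal genes (6) had 4.37 to 5.32 in mutants, against 3.28 to 4.15 in controls, and thalamic genes (5) had 6.19 to 12.8 in mutants, against 6.05 to 6.93 in controls. Defining genes were low beside the factors. Tbr1 had an FPKM of 8.58, 2.74 and 17.7 in mutants, against 6.90, 5.75 and 3.17 in controls, Neurod6 had 15, 2.67 and 18.2 in mutants, against 6.18, 9.50 and 1.72 in controls, Pecam1 had 3.91 ± 0.81 in mutants and 3.52 ± 0.529 in controls, Pdgfrb had 3.56 ± 0.51 in mutants and 3.33 ± 0.326 in controls, and Csf1r had 2.90 ± 0.303 in mutants and 2.77 ± 0.194 in controls (SD, n = 3 each). Their part in the values of the factors was not tested.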
